A study of Mus musculus with 16 samples.

Results

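The transcripts described here are 37 genes of uterine stroma and smooth muscle, taken from the 23306 genes counted by RNA sequencing in mouse endometrial organoids. They were chosen by symbol as known mesenchymal, matrix and contractile genes, with earlier results of these data known. Every one had a row in the table. Organoids, which are balls of cells grown from tissue in a gel, came from Tgfbr2 cKO (Tgfbr2 PRcre+) and Control (Tgfbr2 FF) mice. Both genotypes carry floxed Tgfbr2, the gene of a TGF-beta receptor. The Cre recombinase, driven from the progesterone receptor gene, is present in cKO mice alone, so loss of Tgfbr2 cannot be told apart from the presence of Cre. After 2 days of culture the organoids received E2/MPA, which was 10 nM estradiol (E2) for 2 days and then 10 nM E2 with 1 µM of the progestin medroxyprogesterone acetate (MPA) for 4 days, or vehicle for 6 days. The 4 groups of 4 libraries were cKO E2/MPA (M13 to M16), control E2/MPA (M9 to M12), cKO vehicle (M5 to M8) and control vehicle (M1 to M4). No age is given in the labels, and nothing in them ties a library to its own animal, so the p-values reflect variation among these cultures that may be technical.

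The stroma of the endometrium is a layer of fibroblasts that surrounds the glands, secretes fibrillar collagens and small proteoglycans, and answers estrogen and progesterone through its own receptors. In the mouse it turns into decidua under progesterone, with the homeobox proteins HOXA10 and HOXA11 among the regulators it needs. The smooth muscle of the myometrium lies outside it and makes actin, myosin, calponin and desmin for contraction.

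The label of the cells is epithelial, and all 10 epithelial markers were in the table in every library. Krt7 (27140 to 52233 normalized counts) and Krt8 (17903 to 33402), which encode keratins, had the highest means, and the list summed to 127565 to 203354 per library. Recovered depth was 14372111 to 20016836 reads per library. Tgfbr2 was at 3568 to 5526 in cKO E2/MPA, 4103 to 7794 in control E2/MPA, 3520 to 5439 in cKO vehicle and 4852 to 8054 in control vehicle libraries. These are totals over the whole gene and the deleted exons are not named, so the level does not check the genotype labels. Stromal transcripts were present at very different levels in libraries of the same group. M4, M8, M12 and M16 were the highest of their groups for most of these transcripts.

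The stromal level of a library was measured with 8 collagen genes that are not among the 37 (Col1a1, Col1a2, Col3a1, Col5a1, Col5a2, Col6a1, Col6a2 and Col6a3). The mean of their log2(normalized count + 1) is called the stromal index. It was 8.76, 9.11, 8.37 and 12.28 in cKO E2/MPA, 11.37, 7.69, 8.05 and 12.40 in control E2/MPA, 7.84, 7.66, 7.71 and 11.51 in cKO vehicle and 10.56, 7.78, 6.38 and 12.59 in control vehicle libraries, in the order of the library numbers. The index exceeded 10 in 6 libraries (10.56 to 12.59) and lay between 6.38 and 9.11 in the 10 others, and every group held libraries of both kinds. The libraries are of bulk RNA, so more stromal cells and more RNA per stromal cell cannot be told apart. The index averaged 9.63 ± 1.79 in cKO E2/MPA and 8.68 ± 1.89 in cKO vehicle organoids, and 9.88 ± 2.36 in control E2/MPA and 9.33 ± 2.78 in control vehicle organoids (SD, n = 4 each). None of the 4 differences between groups exceeded the spread between libraries (two-sided exact permutation tests, p = 0.457 for hormone in cKO, 0.686 for hormone in control and 0.971 for genotype under E2/MPA, with an adjusted p of 0.971 in each of the 4 tests, smallest possible p 0.0286). These tests do not pair libraries. Set beside the vehicle library 8 numbers before it, the index was higher in M13, M14, M15, M16, M9 and M11 and lower in M10 and M12. A paired difference was not tested, so a shift of the index with hormone is not excluded.

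**Figure D1:**
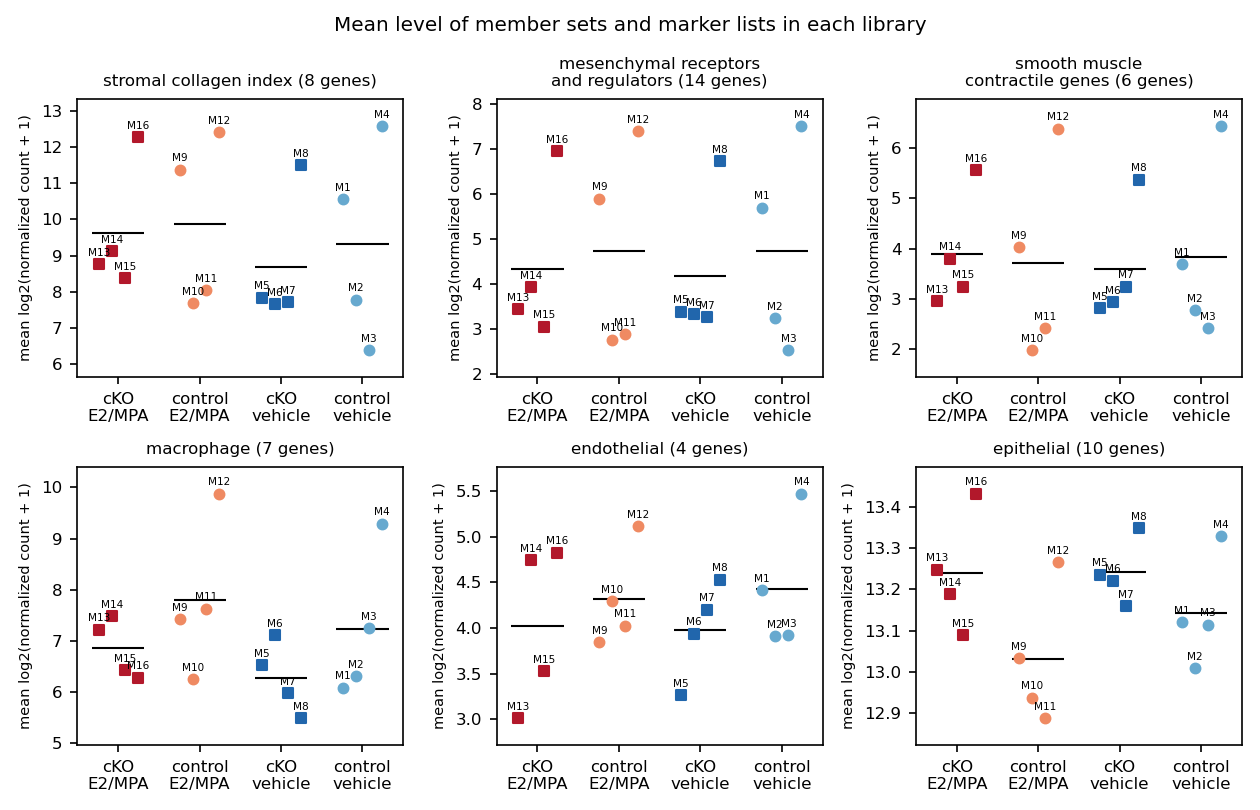
Mean log2(normalized count + 1) of the 8 collagen genes of the stromal index, of the receptors and regulators, of the contractile genes, and of macrophage, endothelial and epithelial markers. Each point is 1 library, each line a group mean, and each panel has its own vertical range. M16, M12, M8 and M4 are the highest of their groups for the index (12.28, 12.40, 11.51 and 12.59), while the macrophage markers are high in M12 and M4 and lowest of their groups in M16 and M8.

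Markers of other cell types were followed beside the index. The 7 macrophage markers summed to 3299 to 4177 in cKO E2/MPA, 2919 to 20408 in control E2/MPA, 1918 to 3606 in cKO vehicle and 2420 to 15166 in control vehicle libraries, and none was at 0 in any library. The highest sums were those of M12 and M4. Lyz2 (77.9 to 15703) and Cd68 (1178 to 3055) had the highest means of that list. Of the 6 endothelial markers 4 were in the table, and their sums were 63.1 to 197 in cKO E2/MPA, 93.8 to 255 in control E2/MPA, 64.0 to 176 in cKO vehicle and 62.2 to 570.2 in control vehicle libraries. Of these, Kdr reached 471 in M4 and was at 0 in 1 library, and Vwf ranged from 13.4 to 147. The pericyte list (5 of 6 in the table) had Rgs5 at 0 in 7 libraries and Kcnj8 at 0 in 12, and its highest means were those of Notch3 (329.6 to 581) and Mcam (2.26 to 61.6). Within groups, 2 of 7 tested macrophage markers were higher and 1 lower at a higher index, as were 1 and 0 of 3 endothelial, 2 and 0 of 3 pericyte, 1 and 0 of 3 mesothelial, 1 and 0 of 2 decidual and 7 and 1 of 10 epithelial markers. Over all genes tested 37.2% were called for this slope, 19.4% higher and 17.9% lower, and the counts of the macrophage, endothelial and mesothelial lists lie near those shares. The epithelial list lies above them, so the index did not move with stromal genes alone. Its median slope was small, 0.052, against 1.02 over the 8 index genes. The pericyte and decidual lists also lie above the shares but hold few genes. The part of these other cell types in the results was not tested, except that the macrophage level was added to the fit as a second covariate. That setting, chosen after the data were seen, left the counts given next at 33 for the slope (33.6% of all genes tested). It left 19 for the averaged hormone effect at equal index (36.6%). Within genotypes it called 13 genes in cKO (19.9% of all genes tested) and 16 in control (26%), against 10 (19.4%) and 13 (25.2%) without it. For genotype under E2/MPA it called 0 higher and 2 lower (3.07%), against 1 and 1 (2.11%).

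Most of the 37 genes followed the stromal level. A first model, limma on log2(normalized count + 1) of the 16509 genes with at least 10 normalized counts in at least 4 libraries, held a mean for each group, and a second added the stromal index. Its slope is the log2 change of a gene per unit of index within groups. Of the 37 genes 34 passed the filter, and 33 of these had a slope called at an adjusted p under 0.05 (Benjamini-Hochberg over all genes, as throughout). Of these slopes 32 were higher and 1 lower, where 37.2% of all genes tested were called (19.4% higher and 17.9% lower). Hand2, Myh11, Hoxa11, Tcf21 and Snai2, for instance, reached 10 normalized counts only in libraries with an index above 10. For such genes the filter itself favours a rise with the index. The slope ran to 1.17 in Pdgfrb, and its median was 0.89 over the 34 genes, against 0.0004 over all genes tested. By role the median was 0.89 over 13 receptors and regulators, 0.91 over 16 matrix genes and 0.61 over 5 contractile genes. Of other genes of these tissues, 10 of 12 further stromal genes were called higher and 2 lower (Nt5e at 4505 to 9290 and Wnt5a at 1151 to 3757 had the highest means), and 7 of 7 further smooth muscle genes were called higher (Tpm1 at 3542 to 10938 and Cnn2 at 1403 to 3075 had the highest means). Without M4, M8, M12 and M16 the slope was called in 24 of the 34, all higher, where 10.3% of all genes tested were called, and the calls of Lum, Mgp, Fn1, Fbln1, Fbln2, Serpinf1, Tagln, Myh11 and Cnn1 were lost.

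**Figure D2:**
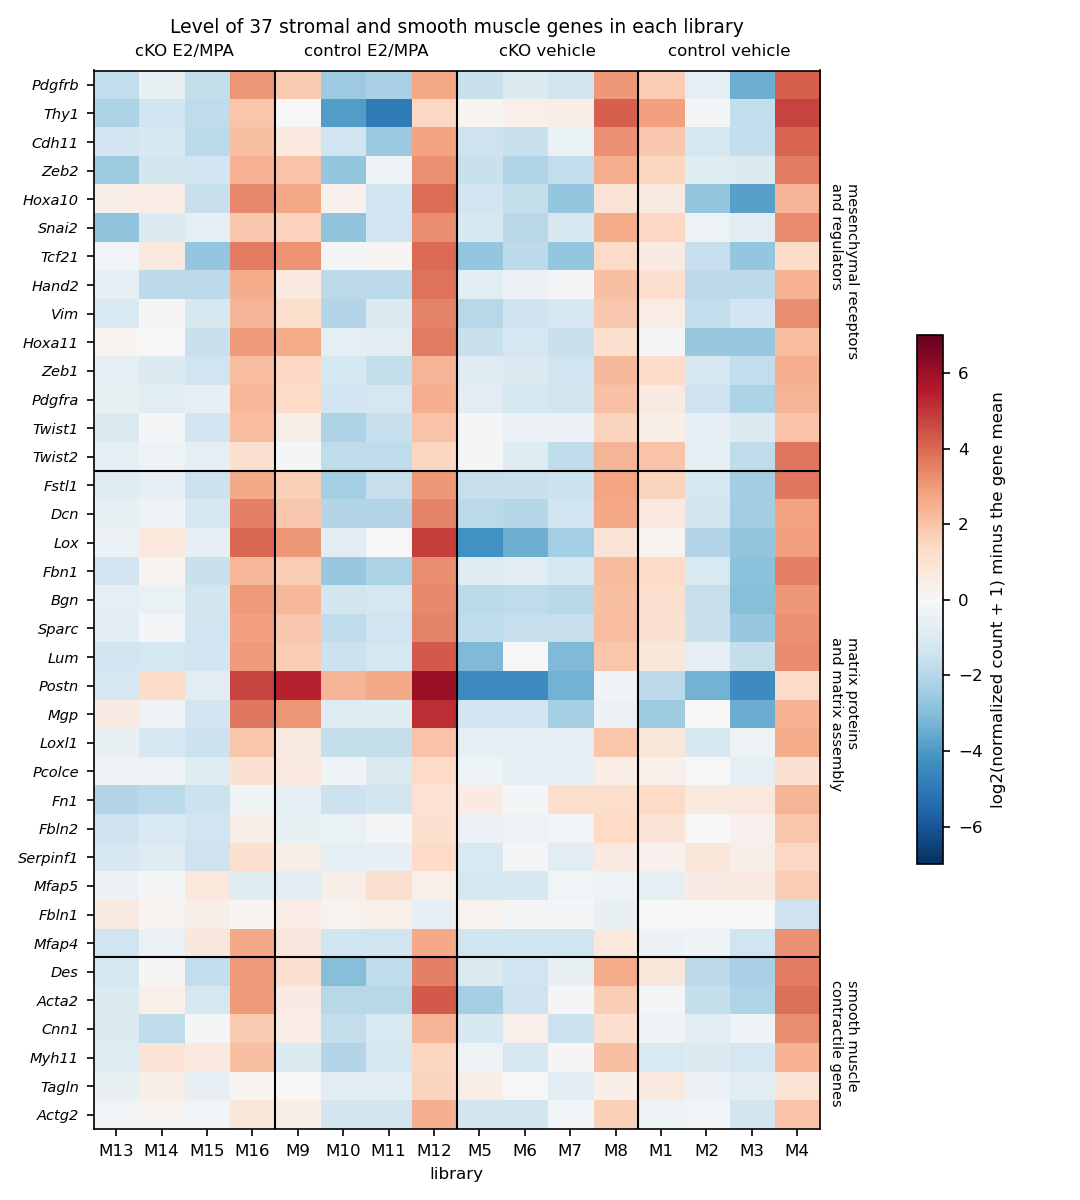
Level of each of the 37 genes in each library, as log2(normalized count + 1) minus the mean of the gene over the 16 libraries, with red above and blue below that mean. Rows are ordered within each role by the slope on the stromal index, with genes that were not tested last, and columns by group. The columns of M16, M12, M8 and M4 are red in most rows, Fbln1 is blue in M12, M8 and M4, and Postn is red in most E2/MPA columns and blue in most vehicle columns.

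Few of the same genes were called for hormone in the first model and more in the second. Averaged over the genotypes, E2/MPA raised Postn and lowered Fn1, and no other of the 34 genes passed in limma, where 19.8% of all genes tested were called (10.8% higher and 9.03% lower). That count depends on whether libraries 8 numbers apart are treated as pairs, which their correlated deviations hint at and the labels do not state: with the pairs as a block 10 were called (38.5% of all genes tested), and Lox, Tcf21, Hoxa10, Hoxa11, Mgp, Fbln1, Thy1 and Fbln2 joined Postn and Fn1, with Postn also called within cKO. At equal stromal index 19 of the 34 were called, 7 higher and 12 lower, where 36.1% of all genes tested were called (18.5% higher and 17.5% lower). The higher ones were Postn, Lox, Tcf21, Hoxa10, Hoxa11, Fbln1 and Bgn, and the lower ones Thy1, Fn1, Cdh11, Snai2, Pdgfrb, Fbln2, Loxl1, Twist1, Fbn1, Des, Fstl1 and Zeb1. A difference at equal index compares a gene with the 8 collagen genes of the same libraries. It shows that they changed unequally and not which of them changed. Of these 8 collagen genes, 2 were called higher and 1 lower in the same fit (18.5% and 17.5% of all genes tested). Because the index is their mean, their effects at equal index cancel on average by construction. Their calls therefore do not check the index. The slope and the hormone effect at equal index of each gene come from 1 fit on the same 16 libraries. The calls of 11 genes remained in every setting tried and with every library left out in turn (Pdgfrb, Thy1, Cdh11, Twist1, Fn1, Fbln1, Fbln2, Postn, Fstl1, Lox and Loxl1). Without M4, M8, M12 and M16 the count was 15 (31.4% of all genes tested), with 3 higher (Postn, Lox and Fbln1).

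**Figure D3:**
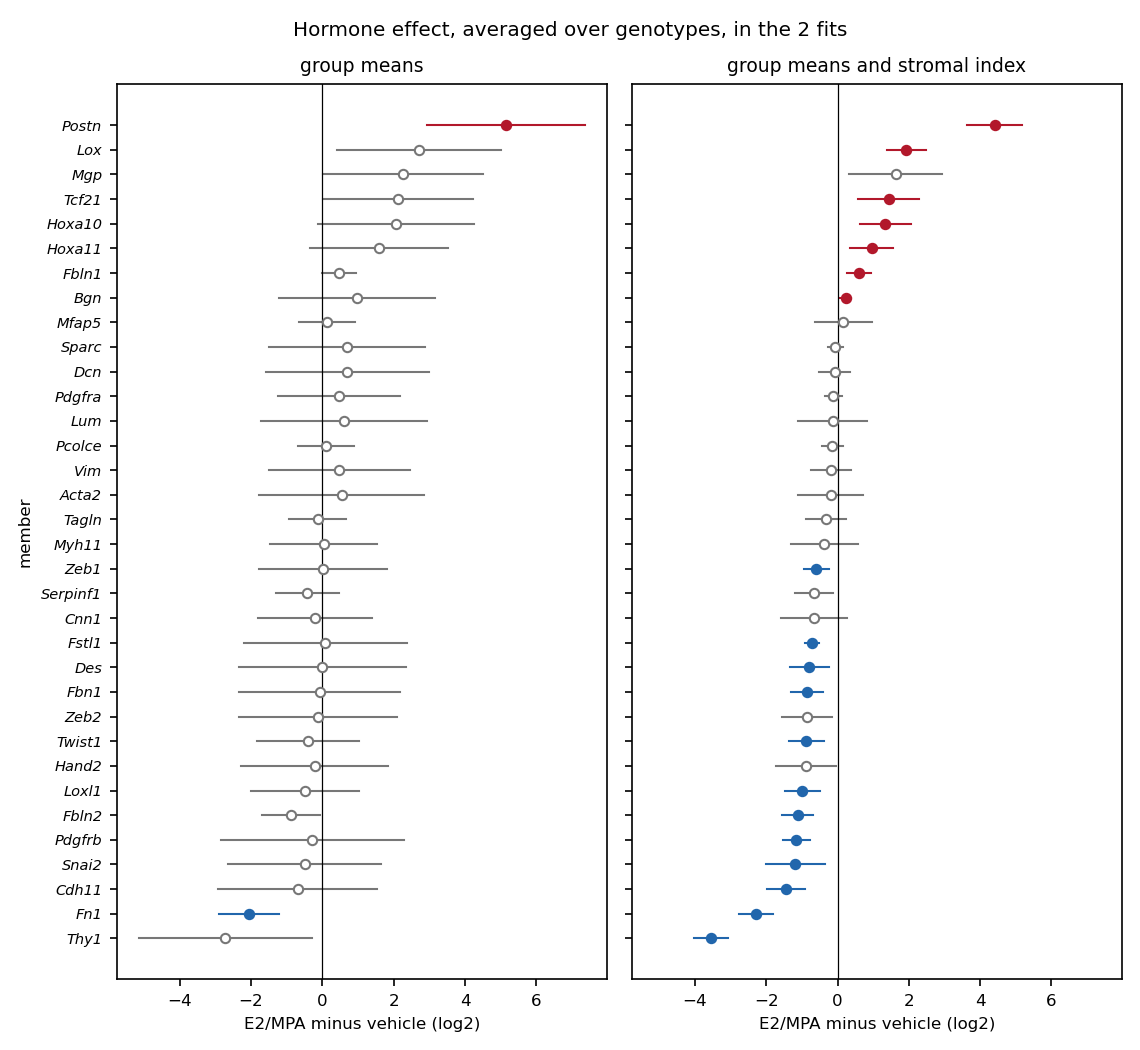
Hormone effect (E2/MPA minus vehicle, log2, averaged over genotypes) of 34 genes with its 95% interval, in the model with group means on the left and with the stromal index added on the right. Filled points passed an adjusted p of 0.05 (red higher, blue lower). Most intervals are narrower in the right panel, where Postn stands at 4.41 and Thy1 at -3.55.

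Among the surface proteins, 3 of 4 were lower at equal index under E2/MPA: Thy1, Pdgfrb and Cdh11. Values are normalized counts, listed in the order of the library numbers. Thy1 (ENSMUSG00000032011) encodes a glycoprotein anchored in the membrane of fibroblasts. In cKO organoids Thy1 was at 5.95, 10.6, 7.98 and 116 under E2/MPA, against 32.5, 37.8, 41.8 and 549 under vehicle. In control organoids Thy1 was at 28.6, 1.00, 0 and 81.4 under E2/MPA, against 227, 27.1, 8.18 and 807 under vehicle. The libraries M13 to M15 all lay below M5 to M7, and M10 and M11 held almost no Thy1, but the high libraries made the groups overlap in both genotypes. The hormone effect in the first model was -2.72 on the log2 scale (SE 1.13, adjusted p = 0.108), which did not pass. Its slope was 1.10 (SE 0.056), and at equal index Thy1 fell by 3.55 (SE 0.22, adjusted p = 2.54e-08), the largest fall among the 34.

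Pdgfrb, a receptor for platelet-derived growth factor on fibroblasts and mural cells, had the steepest slope, 1.17 (SE 0.046). In cKO organoids Pdgfrb was at 13.1, 30.8, 13.7 and 395 under E2/MPA, against 14.6, 22.7, 18.1 and 384 under vehicle. In control organoids Pdgfrb was at 165, 7.00, 8.64 and 299 under E2/MPA, against 160.4, 28.2, 3.27 and 850.1 under vehicle. Levels under both treatments overlapped, with M4 the highest of all 16 libraries. At equal index Pdgfrb fell by 1.16 (SE 0.18, adjusted p = 0.000133). Pdgfra, the sister receptor that marks stromal fibroblasts, was at 59.7 to 1638 and had a slope of 0.79 (SE 0.028). Its hormone effect at equal index was -0.12 (SE 0.11, adjusted p = 0.455), and the 95% interval ran from -0.35 to 0.12.

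Cdh11 encodes a cadherin of mesenchymal cells. In cKO organoids Cdh11 was at 21.4, 25.5, 14.8 and 246 under E2/MPA, against 20.2, 18.5, 40.7 and 528 under vehicle. In control organoids Cdh11 was at 91.6, 21.0, 8.64 and 399 under E2/MPA, against 216, 23.7, 16.4 and 967 under vehicle. M16 and M12 lay below M8 and M4, while the remaining libraries overlapped. Its slope was 1.00 (SE 0.064) and at equal index it fell by 1.44 (SE 0.25, adjusted p = 0.000352). Vim, the gene of the intermediate filament vimentin, was at 51.0 to 2363 with a slope of 0.88 (SE 0.068), and its hormone effect at equal index was -0.18 (SE 0.27, adjusted p = 0.646).

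The transcription factors split by direction. At equal index Hoxa10, Hoxa11 and Tcf21 were called higher and Twist1, Snai2 and Zeb1 lower, while Hand2 and Zeb2 did not pass and Twist2 was not tested. Hoxa10 is a homeobox gene of the uterus that is needed for implantation in mice. In cKO organoids Hoxa10 was at 17.8, 18.5, 3.42 and 141 under E2/MPA, against 4.49, 3.36, 1.13 and 24.3 under vehicle. In control organoids Hoxa10 was at 88.1, 16.0, 4.32 and 206 under E2/MPA, against 20.5, 1.13, 0 and 71.2 under vehicle. M16, M12 and M9 held more than any vehicle library, but the groups overlapped in both genotypes. The slope of Hoxa10 was 0.96 (SE 0.085), its hormone effect without the index was 2.06 (SE 1.03, adjusted p = 0.178), and at equal index it rose by 1.34 (SE 0.34, adjusted p = 0.00564). Over all settings and left-out libraries the adjusted p at equal index ran from 0.000124 to 0.0811, and the call was lost without M4, M8, M12 and M16.

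Hoxa11, the neighbouring homeobox gene, was low throughout. In cKO organoids Hoxa11 was at 5.95, 5.28, 1.14 and 48.4 under E2/MPA, against 1.12, 1.68, 1.13 and 12.5 under vehicle. In control organoids Hoxa11 was at 36.6, 3.00, 2.59 and 75.9 under E2/MPA, against 4.89, 0, 0 and 27.2 under vehicle. The highest libraries were M12 and M16, and M2 and M3 held none. Its slope was 0.86 (SE 0.072) and at equal index it rose by 0.95 (SE 0.28, adjusted p = 0.0153). The call was lost without M8 (adjusted p = 0.0523), without M4, M8, M12 and M16, and with a pseudocount of 10. The opposite strand carries Hoxa11os, which reached 12.9, and no source used here states the strand setting, so reads of the pair cannot be told apart.

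Tcf21 encodes a helix-loop-helix factor of mesenchymal cells. In cKO organoids Tcf21 was at 4.76, 9.69, 0 and 79.6 under E2/MPA, against 0, 0.84, 0 and 15.9 under vehicle. In control organoids Tcf21 was at 57.2, 5.00, 6.05 and 103 under E2/MPA, against 8.8, 1.13, 0 and 15.2 under vehicle. The E2/MPA libraries M9, M12 and M16 held more than any vehicle library, M15 held none, and the groups overlapped in both genotypes. The slope of Tcf21 was 0.89 (SE 0.10). At equal index it rose by 1.44 (SE 0.40, adjusted p = 0.0105), a call that was lost without M4, M8, M12 and M16 (adjusted p over all settings 9.99e-06 to 0.102).

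Twist1, Snai2 and Zeb1 encode repressors of the epithelial cadherin gene Cdh1. In cKO organoids Twist1 was at 19.0, 34.3, 14.8 and 177 under E2/MPA, against 37.03, 28.6, 28.2 and 117 under vehicle. In control organoids Twist1 was at 51.5, 8.00, 12.1 and 157 under E2/MPA, against 51.8, 25.96, 19.6 and 159 under vehicle. The range of each group held most of the other, and M10 and M11 were the lowest. Twist1 had the flattest slope of the regulators, 0.63 (SE 0.059), and at equal index it fell by 0.87 (SE 0.23, adjusted p = 0.00818).

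Snai2 was at most 4.52 outside the 6 libraries above an index of 10. In cKO organoids Snai2 was at 0, 2.64, 3.42 and 25.8 under E2/MPA, against 2.24, 0.84, 2.26 and 41.8 under vehicle. In control organoids Snai2 was at 20.6, 0, 1.73 and 67.1 under E2/MPA, against 18.6, 4.52, 3.27 and 70.4 under vehicle. The groups overlapped in both genotypes. With a slope of 0.91 (SE 0.099), it fell by 1.18 at equal index (SE 0.39, adjusted p = 0.027). This call was lost in edgeR and DESeq2, without M4, M8, M12 and M16, and without M8, M10 or M13 (adjusted p up to 0.0908).

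Zeb1 differed little between the treatments as a level. In cKO organoids Zeb1 was at 22.6, 18.5, 13.7 and 169.9 under E2/MPA, against 20.2, 17.6, 13.6 and 184 under vehicle. In control organoids Zeb1 was at 104, 15.0, 11.2 and 199 under E2/MPA, against 91.9, 15.8, 10.6 and 221 under vehicle. The 6 libraries above an index of 10 held at least 91.9 and the 10 others at most 22.6, whatever the treatment. Its slope was 0.81 (SE 0.041), and at equal index it fell by 0.59 (SE 0.16, adjusted p = 0.00995). That call was lost when the index was built from the other members (adjusted p over all settings 0.00567 to 0.165). Its relative Zeb2 was at 3.00 to 325 with a slope of 0.97 (SE 0.084) and a hormone effect at equal index of -0.86 (SE 0.33, adjusted p = 0.0552), which passed with a pseudocount of 10, with the block of libraries 8 apart and without M1, M11, M15 or M16. Hand2, which restrains growth of the epithelium from the stroma of the mouse uterus, reached at most 47.3 and had no read in 6 libraries. Its slope was 0.88 (SE 0.10) and its hormone effect at equal index -0.87 (SE 0.40, adjusted p = 0.0984, passed with array weights and without M12), and it overlaps Hand2os1 on the opposite strand. Twist2 was at 10 or more in 3 libraries, at most 44.8 in M4.

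**Figure D4:**
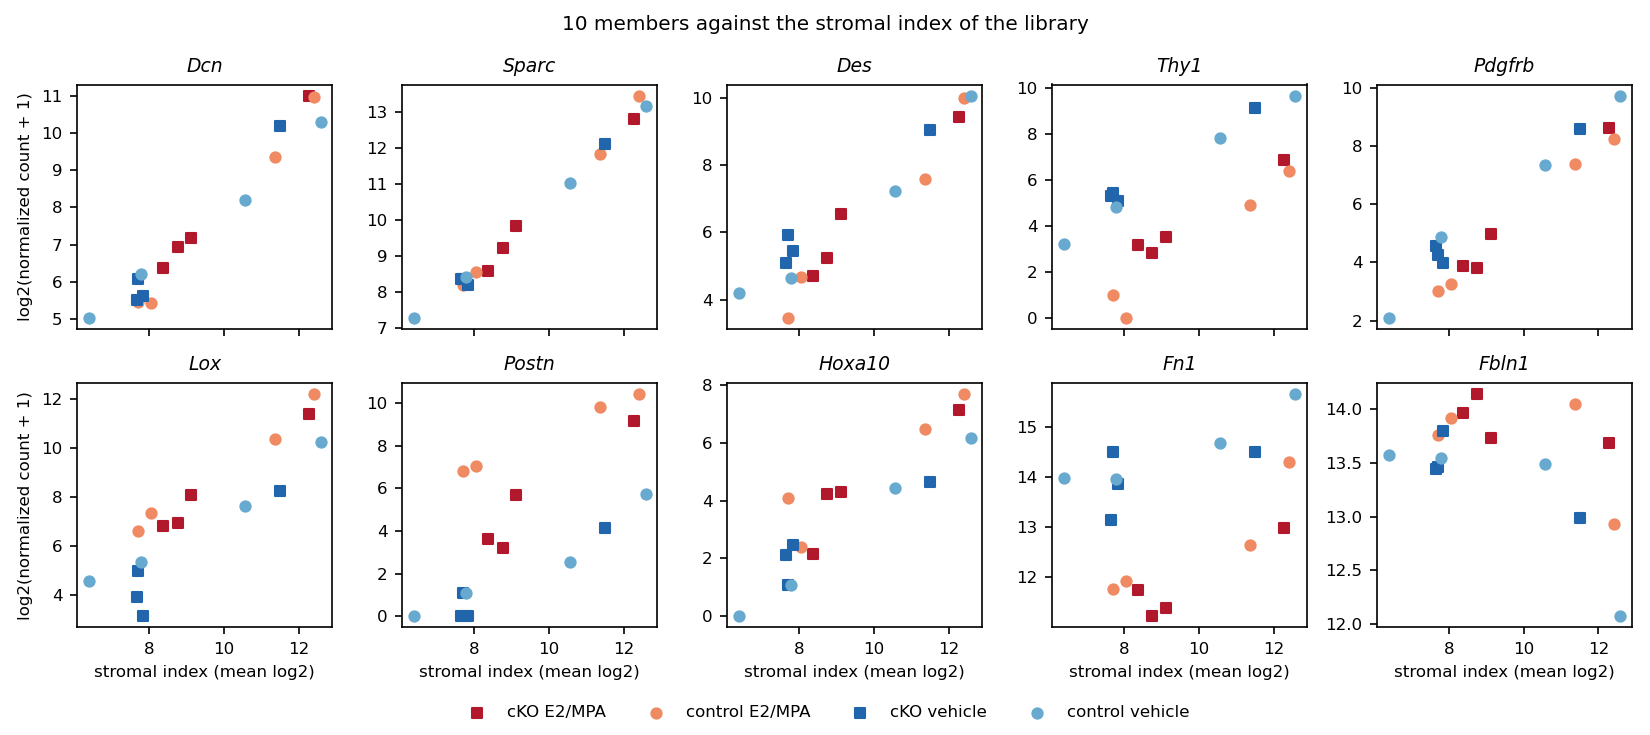
Level of 10 genes, as log2(normalized count + 1), against the stromal index of the library, with squares for cKO and circles for control, and red or orange for E2/MPA and blue for vehicle. Dcn, Sparc and Des follow the index in all groups. Thy1 and Fn1 lie lower, and Lox and Postn higher, in E2/MPA libraries than in vehicle libraries of a like index.

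Of the matrix genes, Postn and Fn1 stood out because their hormone effect did not need the index. Postn (ENSMUSG00000027750) encodes periostin, a matrix protein that binds collagen and integrins. In cKO organoids Postn was at 8.33, 50.2, 11.4 and 566 under E2/MPA, against 0, 0, 1.13 and 16.7 under vehicle. In control organoids Postn was at 895, 110.0, 131 and 1372 under E2/MPA, against 4.89, 1.13, 0 and 52.8 under vehicle. Every control E2/MPA library lay above every control vehicle library, while M13 and M15 lay below M8, so the cKO groups overlapped. Postn rose 35.2-fold on the log2(value + 1) scale averaged over genotypes (log2 5.14, SE 1.04, adjusted p = 0.00322). Within control the effect was 6.17 (SE 1.47, adjusted p = 0.017, 2 of 34 genes called, against 8.9% of all genes tested, 5.39% higher and 3.51% lower), and within cKO it was 4.11 (SE 1.47, adjusted p = 0.136), which did not pass. The interaction of hormone and genotype was -2.06 (SE 2.07, adjusted p = 1.000). Postn also followed the stromal level, with a slope of 0.96 (SE 0.092), and at equal index the averaged rise was 4.41 (SE 0.36, adjusted p = 3.17e-07).

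Fn1 (ENSMUSG00000026193) encodes fibronectin, which links the matrix to integrins and which epithelial cells can make as well. In cKO organoids Fn1 was at 2395, 2694, 3455 and 8123 under E2/MPA, against 14962, 9028, 23332 and 23256 under vehicle. In control organoids Fn1 was at 6412, 3469, 3885 and 20078 under E2/MPA, against 26329.8, 16038, 16273 and 51703 under vehicle. All cKO E2/MPA libraries lay below all cKO vehicle libraries, and in control only M12, at 20078, reached into the vehicle range. Fn1 fell by 2.04 averaged over genotypes (SE 0.39, adjusted p = 0.00238). It fell by 2.16 within cKO (SE 0.56, adjusted p = 0.0416), where it was the 1 gene of 34 called (4.19% of all genes tested, 1.48% lower), and by 1.92 within control (SE 0.56, adjusted p = 0.0446). With 1 library left out, the cKO call was lost for M13, M14, M15, M5, M7, M8, M1 and M9, where the adjusted p reached 0.126, and it was lost in edgeR and with quantile normalization. The control call was lost for M9, M10, M11, M1, M4, M13, M14, M15, M5 and M7, where it reached 0.148, and it was lost in edgeR, in DESeq2, with no filter, with robust moderation and with the compared groups alone. Its slope was 0.32 (SE 0.055), among the flattest, and at equal index it fell by 2.29 (SE 0.22, adjusted p = 1.42e-06). Per kilobase of exon Fn1 (1238 normalized counts on average) came next to Fbln1 (2852), ahead of Sparc (693) and Fbln2 (589), and the remaining members averaged at most 169.

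Lox and Loxl1 encode lysyl oxidases, enzymes that cross-link collagen and elastin, and they went opposite ways at equal index. In cKO organoids Lox was at 124, 274, 112 and 2639.7 under E2/MPA, against 7.85, 14.3, 30.5 and 304 under vehicle. In control organoids Lox was at 1337, 97.0, 161 and 4691 under E2/MPA, against 198, 39.5, 22.9 and 1219 under vehicle. In cKO, M13 to M15 all exceeded M5 to M7, and M16 exceeded M8 several times over, yet the group ranges overlapped. Lox had a slope of 1.04 (SE 0.064), a hormone effect of 2.71 without the index (SE 1.08, adjusted p = 0.0938), and a rise of 1.93 at equal index (SE 0.25, adjusted p = 2.95e-05).

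Loxl1 ran lower. In cKO organoids Loxl1 was at 66.6, 42.3, 34.2 and 373 under E2/MPA, against 60.6, 62.2, 64.4 and 371 under vehicle. In control organoids Loxl1 was at 149.9, 30.0, 30.2 and 391 under E2/MPA, against 172, 44.0, 75.3 and 582 under vehicle. The groups overlapped, with M10, M11 and M15 the lowest libraries. Its slope was 0.67 (SE 0.059) and at equal index it fell by 0.99 (SE 0.23, adjusted p = 0.00367). The difference between the responses of Lox and Loxl1 was not tested.

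The 2 fibulins, secreted proteins of elastic fibres and basement membranes, also parted. Fbln1 was the 1 gene called lower at a higher index. In cKO organoids Fbln1 was at 18018, 13553, 15912 and 13126 under E2/MPA, against 14213, 11126, 11301 and 8125 under vehicle. In control organoids Fbln1 was at 16896, 13888, 15439.5 and 7818 under E2/MPA, against 11454, 11957, 12169.5 and 4309.8 under vehicle. M4, M12 and M8 were the lowest libraries, and Fbln1 varied 4.18-fold between libraries, the narrowest range of the 37. The slope was -0.15 (SE 0.04) with an adjusted p of 0.00681. It was lost without M4 (adjusted p = 0.0521) and turned to 0.015 (adjusted p = 0.836) without M4, M8, M12 and M16. At equal index Fbln1 rose by 0.59 (SE 0.16, adjusted p = 0.00816).

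Fbln2 followed the index more. In cKO organoids Fbln2 was at 1084, 1413, 1132 and 4086 under E2/MPA, against 2227, 2347, 2599 and 7807 under vehicle. In control organoids Fbln2 was at 2067, 2214, 2807 and 6491 under E2/MPA, against 5622, 3046, 3666 and 11448 under vehicle. In cKO the E2/MPA libraries other than M16 lay below all vehicle libraries, and in control M9 to M11 did. Its hormone effect without the index was -0.88 (SE 0.38, adjusted p = 0.124), its slope 0.32 (SE 0.051), and at equal index it fell by 1.12 (SE 0.20, adjusted p = 0.000475).

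Fbn1 encodes fibrillin-1, the main protein of microfibrils. In cKO organoids Fbn1 was at 16.7, 46.7, 13.7 and 217 under E2/MPA, against 23.6, 24.4, 18.1 and 202 under vehicle. In control organoids Fbn1 was at 145, 6.00, 8.64 and 422 under E2/MPA, against 111, 20.3, 4.91 and 503 under vehicle. The groups overlapped, and M3, M10 and M11 were lowest. It had a slope of 1.03 (SE 0.054) and fell by 0.85 at equal index (SE 0.21, adjusted p = 0.00537), a call lost with the index built from the other members (adjusted p over all settings 0.00118 to 0.074). Mfap5, a microfibril protein gene, was the 1 tested gene whose slope was not called. In cKO organoids Mfap5 was at 4.76, 6.16, 11.4 and 3.23 under E2/MPA, against 2.24, 2.52, 5.65 and 5.02 under vehicle. In control organoids Mfap5 was at 3.43, 9.00, 15.6 and 8.8 under E2/MPA, against 3.91, 10.2, 10.6 and 23.99 under vehicle. The groups overlapped, and the highest value was in M4. The gene had a slope of -0.039 (SE 0.096) and a 95% interval of -0.24 to 0.16 (adjusted p = 0.787). Its hormone effect at equal index was 0.17 (SE 0.38, adjusted p = 0.771).

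Bgn and Fstl1 both followed the index and differed in the direction of their hormone effect. Bgn encodes biglycan, a small proteoglycan that binds collagen. In cKO organoids Bgn was at 256, 291, 163 and 3186 under E2/MPA, against 107, 115, 102 and 1688 under vehicle. In control organoids Bgn was at 2019, 163, 176 and 4010.1 under E2/MPA, against 867, 129.8, 49.9 and 3187 under vehicle. Levels overlapped between treatments in both genotypes. Bgn had a slope of 1.01 (SE 0.018) and a rise of 0.22 at equal index (SE 0.071, adjusted p = 0.0228), which was lost without M4 or M10 (adjusted p up to 0.0891) and without M4, M8, M12 and M16.

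Fstl1 encodes a secreted glycoprotein related to follistatin. In cKO organoids Fstl1 was at 121, 148, 80.9 and 1477 under E2/MPA, against 76.3, 79.0, 81.3 and 1550.2 under vehicle. In control organoids Fstl1 was at 734, 44.0, 76.1 and 1921 under E2/MPA, against 677, 98.2, 41.7 and 3013 under vehicle. Again the groups overlapped and M4 was highest. The slope of Fstl1 was 1.05 (SE 0.023) and at equal index it fell by 0.71 (SE 0.091, adjusted p = 2.36e-05).

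The other matrix genes had called slopes and no hormone call in the limma fits with all 16 libraries and no other setting changed. Dcn and Lum, genes of the proteoglycans decorin and lumican, ranged from 31.9 to 2045 and from 0 to 163, and Sparc, the gene of a collagen-binding glycoprotein, from 156 to 11307. Their slopes were 1.04 (SE 0.051), 0.98 (SE 0.12) and 1.01 (SE 0.025). The hormone effect at equal index of Dcn was -0.082 (SE 0.20, adjusted p = 0.791), that of Lum -0.14 (SE 0.46, adjusted p = 0.845) and that of Sparc -0.068 (SE 0.10, adjusted p = 0.641). Pcolce, which encodes an enhancer of procollagen processing, and Serpinf1, the gene of a secreted serpin, had flatter slopes of 0.33 (SE 0.035) and 0.32 (SE 0.064). Pcolce ranged from 141 to 744 and Serpinf1 from 39.9 to 309, with hormone effects at equal index of -0.15 (SE 0.14, adjusted p = 0.438) and -0.66 (SE 0.25, adjusted p = 0.0535). Mgp, which encodes an inhibitor of calcification, ranged from 0 to 405 and had a slope of 0.85 (SE 0.16). Its hormone effect at equal index was 1.63 with a 95% interval of 0.31 to 2.94 (SE 0.62, adjusted p = 0.0512). Serpinf1 and Mgp lay near the threshold, and their adjusted p at equal index ran from 0.0108 to 0.115 and from 0.0116 to 0.176 over all settings and left-out libraries. Serpinf1 passed in DESeq2, with quantile normalization, array weights, the block of libraries 8 apart or either other index, without M4, M8, M12 and M16, and without M1, M4, M5, M12 or M16. Mgp passed in edgeR, with quantile normalization, the block or either other index, and without M2, M6, M11 or M15. Mfap4 was at 10 or more in 3 libraries and was not tested.

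The contractile genes followed the index with a wider spread of slopes, and 1 of 5 tested, Des, was called for hormone. Des encodes desmin and had the highest mean of the 6. In cKO organoids Des was at 36.9, 92.5, 25.1 and 683 under E2/MPA, against 42.6, 32.8, 59.9 and 526 under vehicle. In control organoids Des was at 192, 10.0, 24.2 and 1004 under E2/MPA, against 149.6, 23.7, 17.2 and 1064 under vehicle. M4, M12 and M16 were the highest libraries and M10 the lowest, and the treatments overlapped. Its slope was 1.06 (SE 0.065). Without the index its hormone effect was -0.00031, and at equal index Des fell by 0.80 (SE 0.26, adjusted p = 0.0241). That call was lost in edgeR and without M4, M10, M13 or M15 (adjusted p up to 0.0841).

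Tagln, the gene of the actin-binding protein transgelin, had the flattest called rise with the index, 0.28 (SE 0.066). In cKO organoids Tagln was at 7.14, 15.0, 6.84 and 11.8 under E2/MPA, against 14.6, 10.9, 5.65 and 15.1 under vehicle. In control organoids Tagln was at 10.3, 6.00, 6.05 and 33.0 under E2/MPA, against 17.6, 7.9, 5.73 and 21.6 under vehicle. Apart from M12 its values lay within 5.65 to 21.6 in all groups. Its hormone effect at equal index was -0.33 (SE 0.26, adjusted p = 0.355), and Pcsk7 (768 to 1064), which overlaps it on the opposite strand, makes the value of this low gene uncertain. Acta2, which encodes smooth muscle actin, was at 11.2 to 1189 with a slope of 0.98 (SE 0.11), and Actg2, its near-identical relative, reached at most 13.2 and was not tested. Reads of the 2 actin genes can be split between copies, so both values are uncertain. The slopes of Myh11, a smooth muscle myosin gene, and Cnn1, a calponin gene, were 0.55 (SE 0.11) and 0.61 (SE 0.11) at levels of at most 21.6 and 89.6. None of the hormone effects at equal index of Acta2 (-0.19, SE 0.43, adjusted p = 0.771), Myh11 (-0.37, SE 0.44, adjusted p = 0.556) and Cnn1 (-0.67, SE 0.44, adjusted p = 0.260) passed.

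**Figure D5:**
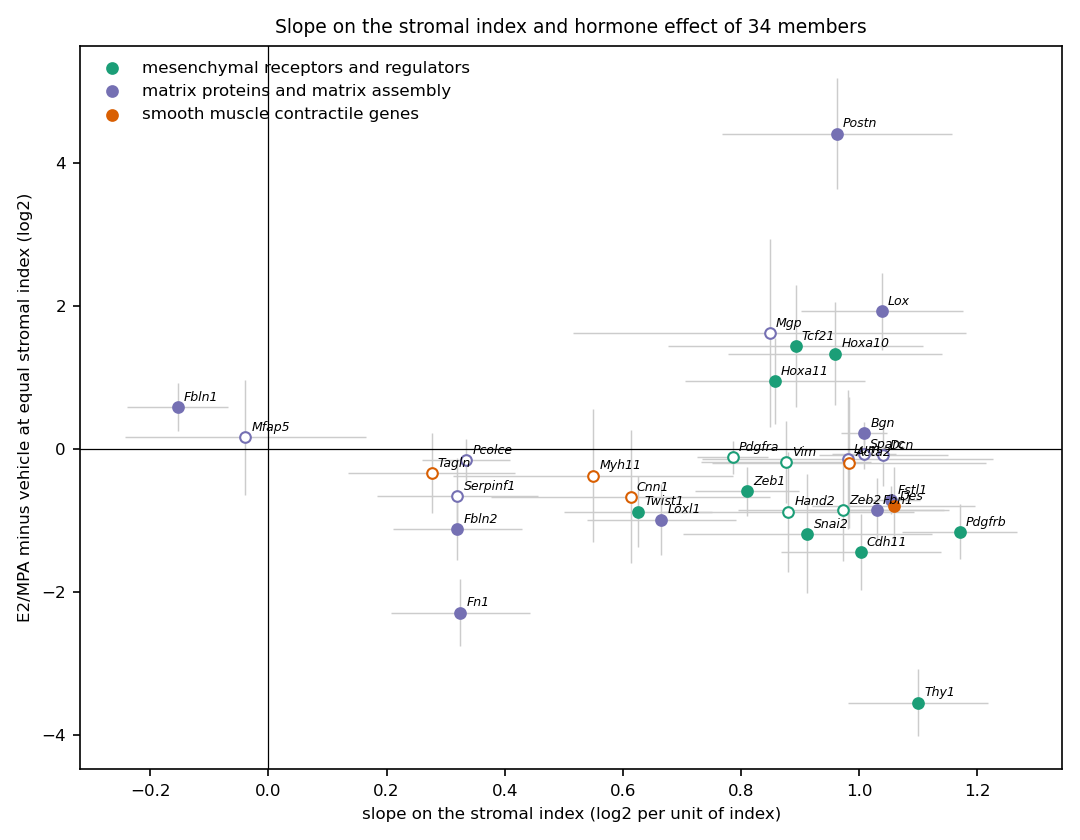
Slope on the stromal index (horizontal, log2 per unit of index) and hormone effect at equal index (vertical, E2/MPA minus vehicle, log2) of 34 genes, each with 95% intervals and coloured by role, filled where the hormone effect passed. Fbln1 and Mfap5 lie left of 0, and Fn1, Fbln2, Pcolce, Serpinf1 and Tagln have slopes of 0.28 to 0.33. Postn at the top has a slope of 0.96 and Thy1 at the bottom one of 1.10.

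The responses of both genotypes to E2/MPA were also read at equal index. In cKO 10 of 34 genes were called, 2 higher and 8 lower (19.4% of all genes tested, 10.7% higher and 8.69% lower). In control 13 were called, 6 higher and 7 lower (25.2% of all genes tested, 13.5% higher and 11.7% lower). The higher genes were Postn and Lox in cKO, and Postn, Lox, Hoxa10, Hoxa11, Tcf21 and Bgn in control. The rise of Postn was 3.19 in cKO (SE 0.51) and 5.64 in control (SE 0.51), and that of Lox was 2.25 in cKO (SE 0.36) and 1.61 in control (SE 0.36). The falls of Thy1 were -3.17 in cKO (SE 0.31) and -3.92 in control (SE 0.31). The calls of Thy1, Fn1, Postn and Lox in both genotypes, of Fbln2 in cKO and of Cdh11 in control remained in every setting tried and with every library left out. No difference between the responses was called. The interaction passed in 0 of 34 with and without the index (0% of all genes tested in each), also in edgeR and DESeq2 (at most 0.00606%). In limma without and with the index 0 and 1 of the 34 were under an unadjusted p of 0.05. Of all 16509 genes tested 309 and 540 were. For Postn the interaction at equal index was -2.44 with a 95% interval, not adjusted for the genes tested, of -3.96 to -0.93 (SE 0.71, adjusted p = 1.000).

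Between genotypes the first model called 0 of 34 genes under vehicle (0% of all genes tested) and 0 under E2/MPA (0.00606%). So did edgeR (0% and 0.00606%) and DESeq2 (0.0848% and 1.12%). Under an unadjusted p of 0.05 were 1 and 0 of the 34, beside 984 and 1794 of all 16509 genes tested. At equal index 0 of 34 were called under vehicle (0.0485% of all genes tested, 0.0242% in each direction), and 0 by edgeR (0.0666%) or DESeq2 (0.824%). Under an unadjusted p of 0.05 were 4 of the 34, beside 1860 of all 16509 genes tested, a like share. Under E2/MPA 2 were called (2.11% of all genes tested, 1.38% higher and 0.727% lower): the log2 difference at equal index, cKO minus control, was -2.86 in Postn (SE 0.50, adjusted p = 0.019) and 1.30 in Thy1 (SE 0.31, adjusted p = 0.0414). As levels, Postn was at 8.33, 50.2, 11.4 and 566 in cKO and 895, 110.0, 131 and 1372 in control organoids under E2/MPA, and M16 alone of the cKO libraries exceeded M10 and M11. Thy1 was at 5.95, 10.6, 7.98 and 116 in cKO and 28.6, 1.00, 0 and 81.4 in control organoids, and M10 and M11, at 1.00 and 0, were the lowest. The Postn call was lost without M10, M11, M13 or M15 (adjusted p up to 0.0827). For this difference edgeR (2.25% of all genes tested) and DESeq2 (5.23%) each called 0 higher and 2 lower. So did the macrophage covariate (3.07%) and the fit without M4, M8, M12 and M16 (3.31%). In each of these settings 1 further gene of the 34 was called lower beside Postn, and it need not be the same gene in each. The Thy1 call was lost in edgeR, in DESeq2, with a pseudocount of 10, with no filter, with the macrophage covariate, without M4, M8, M12 and M16 together, and without M5, M6, M7, M9, M10, M11, M13, M14, M15 or M16 (adjusted p up to 0.329).

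Promoters of some of the genes that parted at equal index are shown because the hormones act through receptors that bind DNA. RefSeq windows on build GRCm38.p6 matched 21 of the 37 genes (27 windows), and the 250 bases before each start were searched for TGTTCT on both strands, the core site shared by the progesterone and glucocorticoid receptors, and for TATAAA on the gene's strand. TGTTCT was in 5 of the 27 windows and in 16.1% of 32851 windows of all genes, and TATAAA in 3 of 27 and in 7.59%. The core site was found before Hoxa11, Fbln1, Bgn, Sparc and Acta2, and TATAAA before Postn, Vim and Twist1. The windows printed below are a selection with no fixed rule, so they do not compare higher with lower genes. Twist1, called lower at equal index with TATAAA at -126, is not among them. The windows of 4 genes with a higher and 2 with a lower hormone effect at equal index follow, each 5′ to 3′ on the gene's strand, with matches in capitals. They lie at chr3:54360857-54361106 (+) for Postn, chr6:52245811-52246060 (-) for Hoxa11, chr15:85205699-85205948 (+) for Fbln1, chrX:73483351-73483600 (+) for Bgn, chr6:91212514-91212763 (+) for Fbln2 and chr16:37776805-37777054 (+) for Fstl1.
Postn: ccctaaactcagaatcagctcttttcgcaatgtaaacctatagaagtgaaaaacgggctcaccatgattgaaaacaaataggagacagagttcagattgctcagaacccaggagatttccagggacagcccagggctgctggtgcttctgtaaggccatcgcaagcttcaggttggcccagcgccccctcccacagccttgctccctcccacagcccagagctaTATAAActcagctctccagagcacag
Hoxa11: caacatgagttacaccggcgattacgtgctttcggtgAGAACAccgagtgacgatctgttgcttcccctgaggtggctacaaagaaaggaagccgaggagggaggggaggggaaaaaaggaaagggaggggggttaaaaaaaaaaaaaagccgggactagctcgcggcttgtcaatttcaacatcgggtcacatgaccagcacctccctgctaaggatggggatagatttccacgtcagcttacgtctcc
Fbln1: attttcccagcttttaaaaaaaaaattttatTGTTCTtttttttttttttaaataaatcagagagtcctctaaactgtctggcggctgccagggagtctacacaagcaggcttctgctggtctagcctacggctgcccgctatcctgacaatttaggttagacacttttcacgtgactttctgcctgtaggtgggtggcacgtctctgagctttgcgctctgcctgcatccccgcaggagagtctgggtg
Bgn: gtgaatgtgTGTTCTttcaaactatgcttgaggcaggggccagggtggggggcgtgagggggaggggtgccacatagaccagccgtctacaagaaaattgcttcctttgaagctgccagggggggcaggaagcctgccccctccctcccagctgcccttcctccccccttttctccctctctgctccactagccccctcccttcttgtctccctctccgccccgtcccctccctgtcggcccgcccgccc
Fbln2: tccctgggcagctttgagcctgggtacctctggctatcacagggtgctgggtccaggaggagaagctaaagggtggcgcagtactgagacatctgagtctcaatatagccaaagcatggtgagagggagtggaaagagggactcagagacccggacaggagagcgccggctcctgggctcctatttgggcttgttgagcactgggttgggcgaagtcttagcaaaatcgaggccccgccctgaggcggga
Fstl1: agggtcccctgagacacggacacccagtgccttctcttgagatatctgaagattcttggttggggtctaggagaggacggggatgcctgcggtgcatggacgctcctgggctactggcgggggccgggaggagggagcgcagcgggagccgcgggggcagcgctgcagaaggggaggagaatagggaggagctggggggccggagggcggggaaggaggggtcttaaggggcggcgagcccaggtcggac
Counted from the start of transcription, the TATAAA of Postn begins at -26, and the core sites begin at -213 in Hoxa11 (as AGAACA), -219 in Fbln1 and -241 in Bgn. The windows of Fbln2 and Fstl1, the other start of Postn and the other start of Fbln1 held neither sequence. A match describes the letters in this window and does not show binding.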

How the data were processed

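RNA sequencing libraries of 16 organoid cultures, 4 in each of 4 groups taken from the library titles, were analysed. The authors deposited normalized counts per gene, a signal obtained by dividing gene counts by a size factor. HISAT2, featureCounts, DESeq2 and GRCm39 are named per the submitters' processing notes, without versions; no source used here states the strand setting. The steps of the deposited values gave back whole reads for 100% of values within 0.01 read in each library, and the depth was 14372111 to 20016836 reads. The smallest chi-square per degree of freedom between libraries of a group was 7.7, so none was counted as a duplicate.

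Genes with at least 10 normalized counts in at least 4 libraries were tested (16509, with 6797 left out). limma 3.58.1 (R 4.3.3, empirical Bayes with a trend) was fitted to log2(normalized count + 1), a scale that understates the change of low genes, with 4 group means and then with the stromal index added. All adjusted p-values in the text are Benjamini-Hochberg values over all 16509 genes from limma unless another tool is named, with a threshold of 0.05. edgeR 4.0.16 and DESeq2 1.42.0 on recovered reads, other scalings, filters, pseudocounts, index genes and left-out libraries were alternatives. The fits were tested on simulated data. Values were joined and plotted in Python 3.11.15 with pandas 2.3.3 and matplotlib 3.10.9.

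The members and gene lists were chosen with earlier results of these data known. Values are given in every library for members called between groups or for hormone at equal index, for the 3 largest and 3 smallest slopes, and for the smooth muscle gene with the highest mean. Effects at equal index within a genotype or treatment, their interaction and the macrophage covariate were added after the main counts were seen.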

Additional observations from a re-analysis of the deposited data

Results flagged for a closer look

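In 18 of 148 groups of 4 libraries, 1 library stood apart from the other 3 in a member's log2 level, by a gap that passed Dixon's criterion for 4 values. For normal values chance gives about 1 in 20 such groups, and on the unlogged scale there were 72. The members share the same libraries and most follow the index. The groups are therefore not independent, and the count does not test for an excess. Most were high values of M8 in the cKO vehicle group. The receptors and regulators in M8 were Pdgfrb at 384, Thy1 at 549, Hoxa11 at 12.5, Zeb1 at 184 and Zeb2 at 148 normalized counts. The matrix genes in M8 were Dcn at 1156, Bgn at 1688, Fbn1 at 202, Fbln2 at 7807, Mfap4 at 3.35, Sparc at 4427, Fstl1 at 1550.2 and Loxl1 at 371 normalized counts. The stromal index of M8, at 11.51, stood apart in the same way.

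In the cKO E2/MPA group M16 was high, with Pdgfra at 1419 and Lum at 66.7 normalized counts. In the control vehicle group M4 was high for Myh11 at 21.6 and Cnn1 at 89.6 normalized counts, and low for Fbln1 at 4309.8.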

How the results depend on the processing

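Of 176 recomputed counts and index differences 158 kept their size and 18 moved. Members called for hormone in cKO were 0 with quantile normalization and 0 in edgeR (4.11% of all genes tested). They were 2 with array weights and 3 without libraries 4, 8, 12 and 16 (5.81%). In control they were 1 in edgeR (9.07% of all genes tested), 1 in DESeq2 (13.2%) and 1 with no filter. They were also 1 with robust moderation and 1 with the compared groups alone. Averaged over genotypes they were 4 in DESeq2 (23.2%), 5 with array weights and 6 without libraries 4, 8, 12 and 16 (22.4%). At equal index 6 were called in cKO with the index from the other members, and for genotype under E2/MPA 1 with no filter and 4 with array weights. With 1 library left out, calls for hormone ran from 0 to 1 in cKO, 1 to 2 in control and 2 to 3 averaged. Calls for genotype under either treatment and for the interaction ran from 0 to 0. Slope calls ran from 32 to 33. At equal index calls ran from 16 to 21 averaged, 8 to 12 in cKO, 9 to 17 in control, 0 to 3 for genotype under E2/MPA, and 0 to 0 for genotype under vehicle and the interaction. Counts in this paragraph without a share beside them were not set against all genes tested. They do not show whether these genes moved more than others. The index difference ran from 0.069 to 1.89 for hormone in cKO, -0.43 to 1.64 for hormone in control, -1.63 to 0.44 for genotype under vehicle and -1.13 to 0.59 for genotype under E2/MPA.

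The labels pair no libraries. A hint of pairing comes from the data: deviations of libraries 8 numbers apart were correlated in 8 of 8 pairs, each highest with its partner. With these pairs as a replicate block, members called for hormone were 4 in cKO, 4 in control and 10 averaged, where 18.8%, 27.1% and 38.5% of all genes tested were called.

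Of 3236 values of single members 3046 kept direction and call, 118 lost and 53 gained a call, and 19 changed sign, 1 of them called: the Fbln1 slope was 0.015 without libraries 4, 8, 12 and 16. The Mfap5 slope was 0.012 in edgeR, 0.0024 in DESeq2 and, with 1 library left out, -0.16 to 0.0018 (highest without M16). With the index from the other members, hormone effects at equal index were 0.12 in Pdgfra, 0.073 in Vim, 0.23 in Dcn, 0.14 in Lum, 0.24 in Sparc and 0.087 in Acta2. That of Dcn was 0.016 in edgeR. With 1 library left out the effect ran from -0.24 to 0.018 in Dcn (above 0 without M3, M8 or M11), -0.33 to 0.18 in Lum (above 0 without M6), -0.056 to 0.54 in Mfap5 (below 0 without M1) and -0.45 to 0.024 in Acta2 (above 0 without M4 or M7). That of Myh11 0.10 without libraries 4, 8, 12 and 16. The cause was not tested. Genes at a few reads per library, such as Hand2, Myh11, Tagln and Mfap5, are limited by depth.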
